A study of Mus musculus with 2 samples.

Results

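The small nucleolar RNAs (snoRNAs) and small Cajal body RNAs (scaRNAs) of the embryonic mouse heart ventricle were followed in a library from embryos without the long non-coding RNA gene Fendrr (KO) and in a wild-type library (WT). They were taken as every row of the deposited table whose symbol begins with Snord, Snora or Scarna, which gave 114 of 23276 symbols: 69 Snord, 36 Snora and 9 Scarna. The KO ventricles came from E12.5 embryos in which both Fendrr alleles were removed by homologous recombination in embryonic stem cells, and the WT ventricles from stage-matched embryos with wild-type Fendrr. All embryos had a mixed C57BL/6 x 129SV background and were made by tetraploid complementation, in which stem cells are combined with a tetraploid host embryo. Each genotype gave 1 library from 4 pooled ventricles, so that no difference has a replicate check, no test was possible, and a value called higher or lower is so between the 2 libraries and no further. In such pooled tissue, fewer cells of a type and less RNA per cell cannot be told apart.

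SnoRNAs guide the chemical modification of ribosomal RNA in the nucleolus. Box C/D snoRNAs (Snord) direct 2′-O-methylation through the methyltransferase fibrillarin, and box H/ACA snoRNAs (Snora) direct pseudouridylation through dyskerin. ScaRNAs do the same for spliceosomal RNAs in Cajal bodies and can carry either or both kinds of box. Most of these RNAs in mammals are cut from introns of host genes, many of which encode ribosomal proteins or are non-coding transcripts of the Snhg family.

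The sequences show how the classes differ in size and in the elements that name them. They are the GENCODE vM21 transcripts (build GRCm38) of RNAs with many reads in each class and length group and of some far apart between the libraries. The lengths of these transcripts can differ from the RefSeq lengths used for read numbers and length groups. Capitals mark TGATGA within the first 20 bases (the core of box C) and CTGA within the last 20 (box D), or, in Snora, ANANNA in the middle 30% (box H) and an ACA that ends 2 to 4 bases before the 3′ end. Snord32a, Snord87, Snord57 and Snora24 were above 0 only in KO, and the others in both libraries. Snord15b, Snord32a, Snora52 and Snora23 lie on chromosome 7, Snord17, Snord57 and Snora65 on chromosome 2, Snord87 and Scarna6 on chromosome 1, Snora24 on chromosome 3 and Snord22 on chromosome 19:
Snord22: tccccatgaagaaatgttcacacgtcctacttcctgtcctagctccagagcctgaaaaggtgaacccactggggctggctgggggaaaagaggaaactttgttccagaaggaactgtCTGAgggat
Snord15b: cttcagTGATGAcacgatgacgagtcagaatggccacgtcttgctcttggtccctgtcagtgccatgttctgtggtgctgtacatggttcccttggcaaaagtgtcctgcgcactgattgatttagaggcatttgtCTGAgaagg
Snord17: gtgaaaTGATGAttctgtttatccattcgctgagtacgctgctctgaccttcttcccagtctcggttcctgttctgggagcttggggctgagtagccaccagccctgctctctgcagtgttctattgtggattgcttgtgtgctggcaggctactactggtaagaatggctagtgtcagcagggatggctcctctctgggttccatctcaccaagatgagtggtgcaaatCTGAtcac
Snord32a: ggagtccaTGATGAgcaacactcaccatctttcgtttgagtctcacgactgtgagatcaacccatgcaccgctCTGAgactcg
Snord87: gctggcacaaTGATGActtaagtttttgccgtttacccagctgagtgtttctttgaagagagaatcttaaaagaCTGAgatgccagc
Snord57: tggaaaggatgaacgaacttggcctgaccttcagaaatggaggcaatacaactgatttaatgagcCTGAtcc
Snora24: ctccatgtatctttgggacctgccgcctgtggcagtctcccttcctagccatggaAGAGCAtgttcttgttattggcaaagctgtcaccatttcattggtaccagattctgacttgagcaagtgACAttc
Snora52: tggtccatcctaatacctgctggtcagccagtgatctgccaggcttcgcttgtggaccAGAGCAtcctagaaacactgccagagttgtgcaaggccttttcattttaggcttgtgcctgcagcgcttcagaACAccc
Snora65: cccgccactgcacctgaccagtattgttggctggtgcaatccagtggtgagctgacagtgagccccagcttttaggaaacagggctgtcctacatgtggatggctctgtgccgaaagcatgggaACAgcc
Snora23: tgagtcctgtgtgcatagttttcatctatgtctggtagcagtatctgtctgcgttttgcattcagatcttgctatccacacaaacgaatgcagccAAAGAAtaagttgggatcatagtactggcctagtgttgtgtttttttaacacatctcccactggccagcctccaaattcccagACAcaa
Scarna6: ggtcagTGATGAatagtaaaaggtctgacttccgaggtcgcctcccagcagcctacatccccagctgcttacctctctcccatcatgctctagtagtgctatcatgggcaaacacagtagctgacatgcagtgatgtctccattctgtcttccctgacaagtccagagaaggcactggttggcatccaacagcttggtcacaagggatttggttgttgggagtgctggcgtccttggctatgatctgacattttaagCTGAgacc

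Both parts of the C/D search, read on the strand of the transcript, were found in 60.3% of 68 Snord sequences, in 0 of 36 Snora sequences, in 4 of 9 Scarna sequences and in 0.0281% of 3558 miRNA and snRNA transcripts of 55 to 300 nt. Both parts of the H/ACA search were found in 86.1% of the 36 Snora sequences, in 0 of 68 Snord sequences, in 3 of 9 Scarna sequences and in 1.94% of the miRNA and snRNA transcripts. No Snord sequence held both H/ACA parts and no Snora sequence both C/D parts, whereas Scarna sequences held either pair. A sequence without a match, such as Snord22 and Snord57 for TGATGA, lacks only these exact letters in the window searched.

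Values were deposited in FPKM, read fragments normalised for transcript length and for library depth. Read numbers were recovered from them, because FPKM multiplied by transcript length takes steps of 1 read. In single-exon genes outside the snoRNAs and scaRNAs, 76.3% of 207 KO values and 71.6% of 194 WT values fell within 0.05 of a whole read number. At shifted steps the median was 5.86% in KO and 7.32% in WT, and the highest share 23.8% in KO and 17.3% in WT. The steps were chosen on these same genes for the most whole numbers, so that their shares describe the fit only. The steps put the depth at about 16400000 mapped fragments in KO and 13100000 in WT, a ratio of 1.26, if all mapped fragments were used for the scaling. With RefSeq lengths, 40 of 46 KO values and 18 of 19 WT values of the small RNAs above 0 were whole. A listed 0 was taken to allow up to 3 reads, which for an RNA of 70 nt is 2.61 FPKM in KO and 3.27 FPKM in WT. This limit holds only if the library could yield reads of that RNA and the 0 is not a failed estimate. It leaves out the counting error of the read number set against it. Intervals and limits given here cover counting error only, since amplified reads are not independent molecules.

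Some facts of the libraries bear on every value below. The libraries were sequenced on separate runs, and per the labels the WT run broke off, its base calls were made manually and reads shorter than 100 bases were possibly filtered out, while the KO run went through the usual pipeline. Run, base calling and genotype therefore cannot be told apart. The 6 markers of ventricular cardiomyocytes on the list, among them Myl2 and Tnnt2, ranged from 20.4 to 9478 FPKM in KO and from 26.6 to 9103 FPKM in WT. The older symbol of Fendrr, 1110050K14Rik, was listed at 0 in both libraries and gave no check of the genotype. The libraries also differed in Y-linked transcripts, with Ddx3y at 0.786 FPKM in KO and 17.7 FPKM in WT, and in the yolk sac and liver gene Afp, at 16.6 FPKM in KO and 0.110 FPKM in WT. Their part in the results was not tested.

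Far more snoRNAs were seen in the KO library than in the WT library, and the difference followed transcript length. In all, 47 of 114 were above 0 in KO and 19 in WT: 17 in both, 30 only in KO, 2 only in WT and 65 in neither. Over all symbols of the table, 4.88% were above 0 only in KO, 2.21% only in WT and 65.5% in both. Of the 69 box C/D RNAs, 24 were above 0 in KO and 4 in WT. Of the 36 box H/ACA RNAs, 20 were above 0 in KO and 13 in WT, and of the 9 scaRNAs, 3 in KO and 2 in WT.

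**Figure D1:**
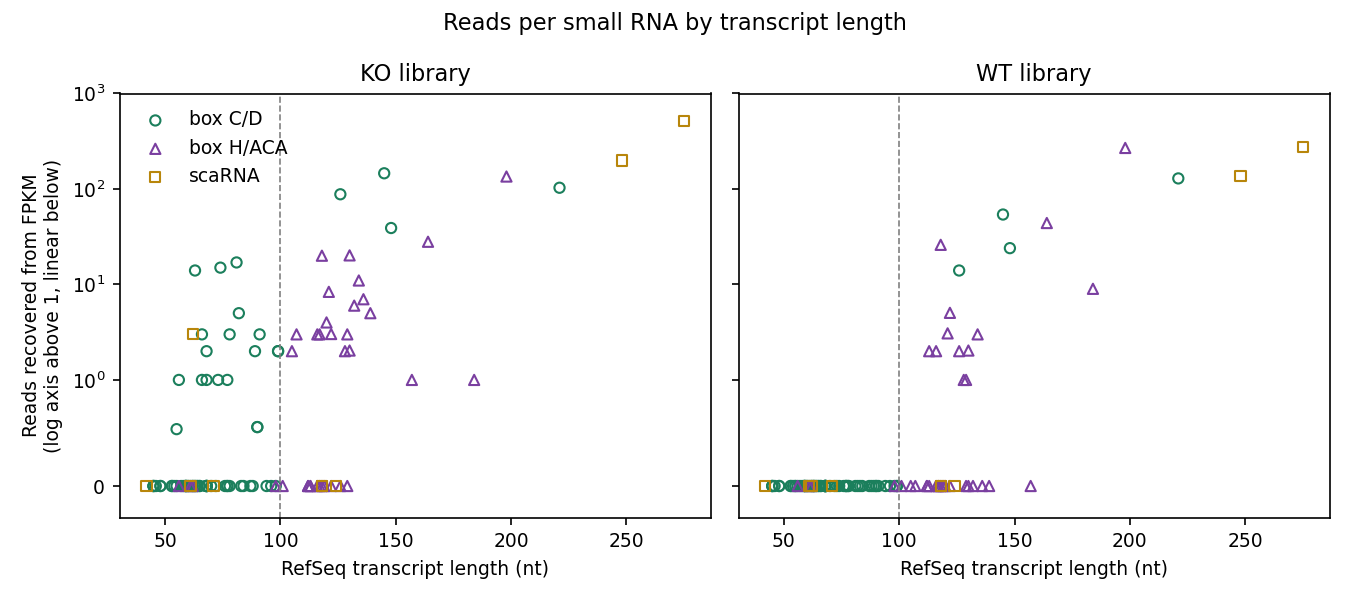
Reads recovered from FPKM (y axis, logarithmic above 1 and linear below) against RefSeq transcript length in nt (x axis) for 113 small RNAs with a RefSeq length, with KO on the left and WT on the right. Each symbol is 1 RNA, its shape and colour give the class, and the dashed line is at 100 nt. Left of the line, 20 RNAs lie above 0 in KO and 0 in WT.

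By RefSeq length, 72 of the RNAs were under 100 nt and 41 were 100 nt or longer. Under 100 nt, 20 were above 0 in KO and 0 in WT. Their whole read numbers, known for 17 of the 20, summed to 76 in KO, equal to 60.5 reads at the WT depth, against 0 reads in WT. The shortest RNA above 0 by RefSeq was the 55 nt Snord58b in KO and the 113 nt Snora41 in WT. By GENCODE it was Snord58b at 66 nt in KO and Snora26 at 121 nt in WT. Between 100 and 112 nt by RefSeq, 2 of 5 RNAs were above 0 in KO, with 3 and 2 reads, and 0 in WT. By GENCODE these 5 RNAs have 129 to 137 nt. RefSeq and GENCODE lengths differ for most of the RNAs, usually with RefSeq the shorter, so that the length groups depend on the annotation. The widest gap was that of Scarna2, of 61 nt by RefSeq and 414 nt by GENCODE.

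The longer RNAs were summed in the same way. From 100 to 149 nt, 19 RNAs with whole read numbers above 0 summed to 347 reads in KO, equal to 276 at the WT depth, against 136 in WT. From 150 nt upwards, 6 such RNAs summed to 467 reads in KO, equal to 372 at the WT depth, against 587 in WT. These sums leave out RNAs without whole read numbers, Scarna13 among them. Over all members of the longer band the FPKM values summed to 244 in KO and 292 in WT, but without Snora74a the order turned, to 203 in KO and 188 in WT. Over all members from 100 to 149 nt they summed to 169.6 in KO and 79.3 in WT, and KO was the higher with any 1 of them left out. The bands also mix the classes. Over RNAs of 100 nt or more with whole read numbers, box C/D summed to 299 KO reads at the WT depth against 221 in WT. Box H/ACA summed to 190 against 366, and the scaRNAs to 158 against 136. What part read length, class, genotype or another difference between the runs has in these sums was not tested.

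The box C/D class was divided by the same line. By RefSeq, all 4 Snord of 100 nt or more were above 0 in both libraries. Of the 64 shorter ones, 19 were above 0 in KO and 0 in WT. By GENCODE the split was less clean. Snord8, Snord23, Snord43, Snord67, Snord89 and Snord90 have 108 to 111 nt by GENCODE, and all were listed at 0 in WT. Of these, only Snord8 and Snord23 were above 0 in KO. The box H/ACA RNAs are longer, and 32 of 36 had at least 100 nt by RefSeq. Of these 32, 11 were above 0 in both libraries, 9 only in KO, 2 only in WT and 10 in neither. The 4 shorter ones (Snora19, Snora20, Snora61 and Snora68) were at 0 in both, and by GENCODE they have 128 to 132 nt. RNAs listed at 0 in WT and read in KO were thus not limited to those under 100 nt.

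Over the symbols of the table with a GENCODE length, the snoRNAs and scaRNAs included, the shares above 0 were counted by that length. Symbols without a GENCODE match by name were left out. Under this count, 3.60% of 555 symbols under 100 nt were above 0 in KO and 0% in WT. From 100 to 149 nt, 19.3% of 145 symbols were above 0 in KO and 12.4% in WT. At 1000 nt and over the shares were 72.3% in KO and 69.3% in WT. Most symbols above 0 under 100 nt were snoRNAs or scaRNAs. Without them, 2 of 495 symbols under 100 nt (0.404%) were above 0 in KO and 0 in WT, and from 100 to 149 nt 6 of 100 were above 0 in KO and 5 in WT. The 2 were DQ267102 at 6.00 FPKM and AF357425 at 3.53 FPKM in KO, both listed at 0 in WT. Of 616 microRNA genes (Mir), 6 were above 0 in KO and 6 in WT.

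**Figure D2:**
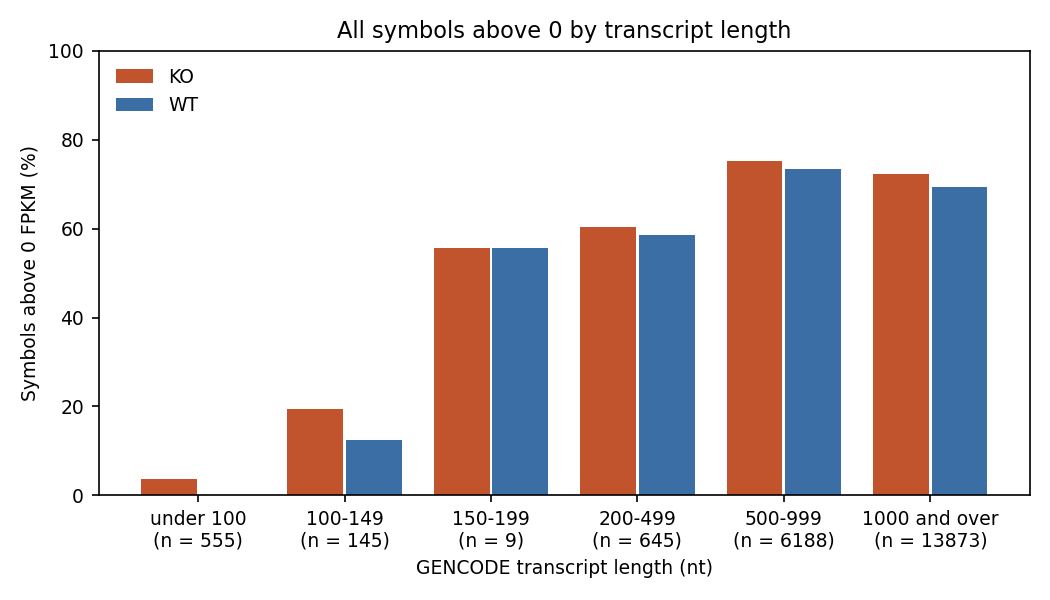
Share of symbols with a GENCODE length, snoRNAs and scaRNAs included, above 0 FPKM in percent (y axis) by that length in nt (x axis). The number of symbols in each length class is given as n. Bars stand for the KO library (left) and the WT library (right). KO has 3.60% under 100 nt where WT has 0%, and the bars of the 2 libraries lie close together from 150 nt.

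The short box C/D RNAs with the most reads were Snord32a, Snord87 and Snord57. Snord32a, one of the snoRNAs in introns of the ribosomal protein gene Rpl13a, was at 12.8 FPKM (17 reads) in KO and listed at 0 in WT. Snord87, from the non-coding host Snhg6, was at 12.3 FPKM (15 reads) in KO and listed at 0 in WT. Snord57, from Nop56, itself the gene of a core protein of box C/D particles, was at 13.5 FPKM (14 reads) in KO and listed at 0 in WT. At the WT depth these would be 13.5, 11.9 and 11.1 reads, above the 3 reads that a listed 0 allows.

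Other RNAs of the same Rpl13a gene were also seen in KO. Snord33 was at 3.71 FPKM (5 reads), Snord34 at 2.76 FPKM (3 reads) and Snord35a at 1.37 FPKM (2 reads) in KO, and all were listed at 0 in WT. Rpl13a itself was at 637 FPKM in KO and 609 FPKM in WT. The Rpl13a snoRNAs are known in rodent cells as mediators of lipotoxic stress. At the WT depth the KO reads of Snord34 and Snord35a equal 2.39 and 1.59 reads, under the 3 that a listed 0 allows, so no difference was detectable for these. Those of Snord33 equal 3.98 reads, which passed that limit only without the counting error of its 5 KO reads.

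The remaining short RNAs rested on few reads. Snord16a (2.00 FPKM), Snord55 (2.34 FPKM) and Scarna17 (2.94 FPKM) had 3 reads each in KO. Snord8, Snord23 and Snord82 had 2 reads each in KO, and Snord12, Snord83b, Snord95, Snord99 and Snord104 had 1 read each. Snord116, Snord116l1 and Snord116l2, copies of the Prader-Willi locus RNA, were each at 0.375 FPKM in KO, which is not a whole read number. The last 2 have identical sequences (100% identity over 94 nt), so that their separate levels are uncertain. Snord58b, at 0.593 FPKM in KO, also gave no whole number. None of these RNAs exceeded 3 reads at the WT depth, so that a difference was not detectable at this depth for any one of them.

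**Figure D3:**
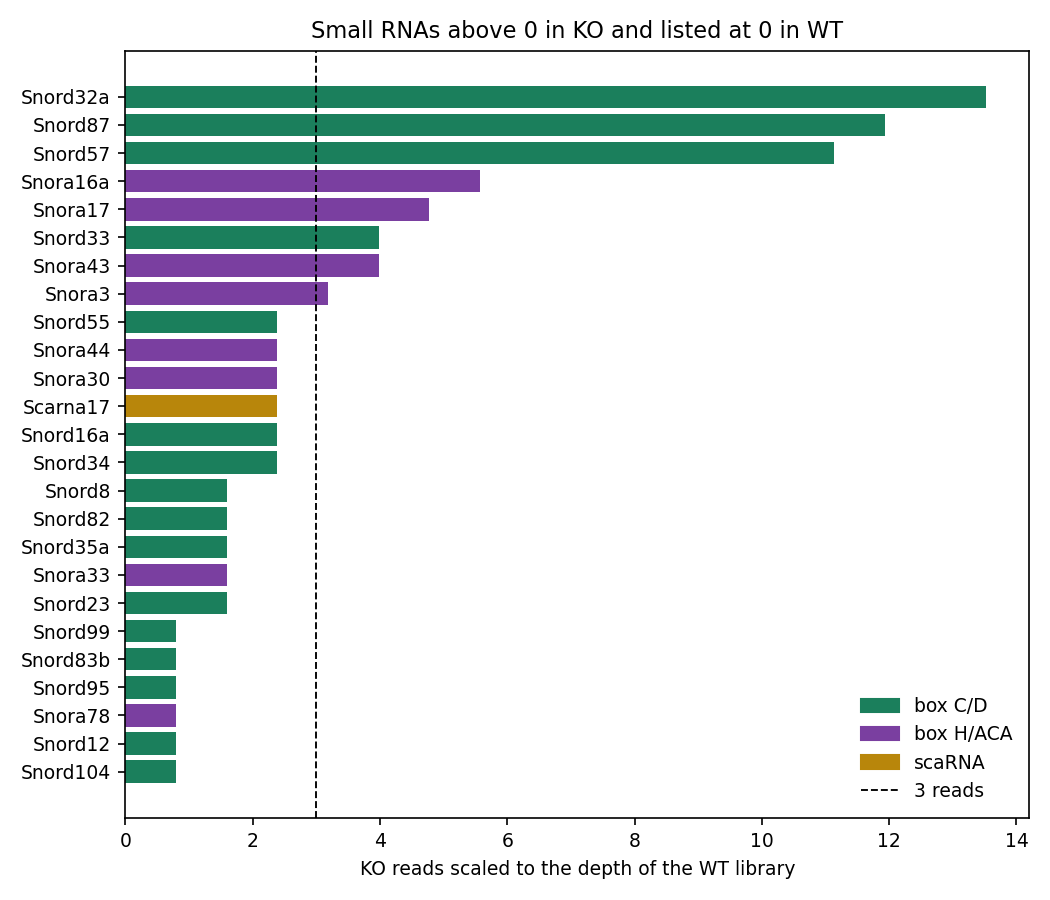
Reads in KO scaled to the depth of the WT library (x axis) for the 25 of 30 RNAs above 0 only in KO that had whole read numbers. Bars are coloured by class, and the dashed line marks the 3 reads that a listed 0 in WT allows. Of the 25 bars, 8 pass the line, led by Snord32a at 13.5. The line does not include the counting error of the KO reads. RNAs without whole read numbers, Snora24 among them, are not shown.

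Among box H/ACA RNAs above 0 only in KO, several came from Snhg transcripts, non-coding RNAs known mainly as snoRNA hosts. Snora24, within Snhg8, was at 9.43 FPKM in KO and listed at 0 in WT, which equals 20.2 KO reads at its RefSeq length and so was not a whole number. Snora16a, within Snhg12, was at 3.13 FPKM (7 reads) in KO and listed at 0 in WT. Snora44, of the same host, was at 1.56 FPKM (3 reads) in KO and listed at 0 in WT. Snhg8 itself was at 18.7 FPKM in KO and 17.9 FPKM in WT, and Snhg12 at 9.43 FPKM in KO and 11.3 FPKM in WT. These hosts thus had similar levels in the libraries, but Snora24, Snora16a and Snora44 each overlap an exon of an annotated host transcript.

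The others of this group were Snora17 (2.76 FPKM, 6 reads), Snora43 (2.19 FPKM, 5 reads), Snora3 (2.03 FPKM, 4 reads), Snora30 (1.70 FPKM, 3 reads), Snora33 (1.16 FPKM, 2 reads) and Snora78 (0.387 FPKM, 1 read) in KO. All were listed at 0 in WT. The reverse held for Snora41 and Snora47, which were listed at 0 in KO, against 1.35 and 1.21 FPKM in WT, 2 reads each. Of the 8 H/ACA RNAs above 0 only in KO with whole read numbers, 4 (Snora16a, Snora17, Snora43 and Snora3) passed 3 reads at the WT depth. That limit leaves out the counting error of their few KO reads, so that passing it does not by itself make a difference. Snora24, at 20.2 KO reads and without a whole number, is not in this count.

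Differences at or past 2-fold on the log2(FPKM + 1) scale, which understates those of low values, were counted among genes with a mean over the libraries of at least 1 FPKM. Of 29 snoRNAs and scaRNAs with that mean, 16 were at least 2-fold higher in KO (background 0.467% of 11349 genes) and 2 at least 2-fold lower (background 0.388%). The background includes the small RNAs, so that 16 of its 53 higher genes are the small RNAs themselves. At 1 FPKM a short RNA also rests on fewer reads than a longer gene. Of the 16, 13 were listed at 0 in WT and reached the mean through KO alone, so that their direction followed from the choice. Of the 16 above 0 in both libraries with that mean, 3 were higher (Snord22, Snord15b and Snora52) and 2 lower (Snora74a and Snora23).

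The 17 RNAs above 0 in both libraries did not share a direction. Their median log2 ratio was 0.21, with 10 higher and 7 lower in KO, beside a median of -0.07 over 15254 genes above 0 in both. The 4 box C/D RNAs had a median of 0.71, the 11 box H/ACA RNAs of -0.17 and the 2 scaRNAs of 0.39. By length, 8 of 11 under 150 nt were higher in KO, and 4 of 6 of 150 nt or more were lower. These counts were the same under each of the 3 other scalings tried. For 15 of the 17 a counting interval of the FPKM ratio could be given, and it lay above 1 for 2, below 1 for 4 and held 1 for 9.

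**Figure D4:**
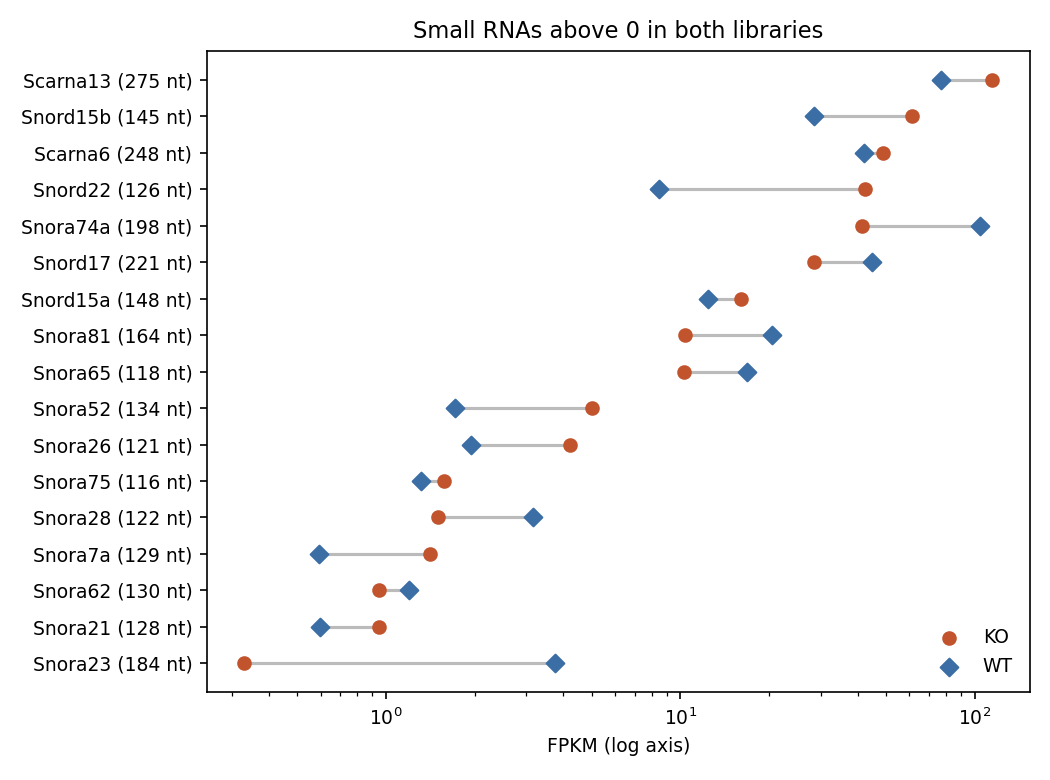
FPKM on a logarithmic axis (x) in the KO library (circles) and the WT library (diamonds) for the 17 RNAs above 0 in both, ordered by their KO value and labelled with RefSeq length. Snord22 lies furthest to the KO side, at 42.5 FPKM in KO and 8.49 FPKM in WT, and Snora23 furthest to the WT side, at 0.330 FPKM in KO and 3.74 FPKM in WT.

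Snord22 was the box C/D RNA furthest apart. U22, as it is also called, lies in Snhg1 and is known from frog oocytes to be needed for processing of 18S ribosomal RNA. It was at 42.5 FPKM (88 reads) in KO and 8.49 FPKM (14 reads) in WT, a log2 ratio of 2.20 and an FPKM ratio of 5.002 (95% interval from the exact binomial, 2.83 to 9.52). Its host Snhg1 was at 35.4 FPKM in KO and 41.1 FPKM in WT, on the other side of 1. Snord22 overlaps an exon of an annotated Snhg1 transcript, so that reads of host and snoRNA may not be separable. The same limit applies to every RNA over an exon of its host, among them Snord15b, Snord57, Snora24, Snora52, Snora65, Snora74a and Snora81.

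Snord15a and Snord15b lie in the ribosomal protein gene Rps3 and guide methylation of 28S ribosomal RNA. Snord15b was at 61.2 FPKM (146 reads) in KO and 28.5 FPKM (54 reads) in WT, a ratio of 2.15 (95% interval 1.56 to 2.997). Snord15a was at 16.0 FPKM (39 reads) in KO and 12.4 FPKM (24 reads) in WT, a ratio of 1.29 whose interval of 0.758 to 2.25 holds 1. Rps3 was at 351 FPKM in KO and 439 FPKM in WT. The 2 RNAs share 66.0% of aligned bases, and Snord15b was the more abundant in both libraries.

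Snord17, the longest box C/D RNA at 221 nt by RefSeq (238 nt in the GENCODE sequence above), was lower in KO. It was at 28.3 FPKM (103 reads) in KO and 44.6 FPKM (129 reads) in WT, a ratio of 0.635 (95% interval 0.486 to 0.830). Its host Snx5, which encodes a sorting nexin, was at 68.2 FPKM in KO and 74.6 FPKM in WT. The 4 box C/D RNAs seen in both libraries thus included 2 whose interval lay above 1, 1 below it and 1 whose interval held 1.

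Snora74a was the most abundant H/ACA RNA in both libraries. It was at 41.5 FPKM (135 reads) in KO and 103.8 FPKM (269 reads) in WT, a log2 ratio of -1.30 and a ratio of 0.399 (95% interval 0.322 to 0.493). Snora81, within the translation factor gene Eif4a2, was at 10.4 FPKM (28 reads) in KO and 20.5 FPKM (44 reads) in WT, a ratio of 0.506 (interval 0.304 to 0.832). Eif4a2 itself was at 160 FPKM in KO and 172 FPKM in WT. Snora65, within the ribosomal protein gene Rpl12, was at 10.3 FPKM (20 reads) in KO and 16.8 FPKM (26 reads) in WT, and its interval of 0.324 to 1.14 holds 1.

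Other H/ACA RNAs went either way on few reads. Snora23, within the nuclear import gene Ipo7, was at 0.330 FPKM (1 read) in KO and 3.74 FPKM (9 reads) in WT, a ratio of 0.0884 (95% interval 0.00202 to 0.638). Snora52, within the ribosomal protein gene Rplp2, was at 4.99 FPKM (11 reads) in KO and 1.71 FPKM (3 reads) in WT, with an interval of 0.771 to 16.3. Snora26, within Dancr, was at 4.20 FPKM in KO and 1.94 FPKM in WT, neither a whole read number. The intervals of Snora7a, Snora21, Snora28, Snora62 and Snora75, which had at most 3 reads in KO and at most 5 in WT, also held 1.

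The 2 scaRNAs seen in both libraries were among the most abundant of these RNAs. Scarna13, within Snhg10, was at 114.7 FPKM in KO and 77.0 FPKM in WT, a ratio of 1.49 without a whole read number in KO. Scarna6, within the autophagy gene Atg16l1, was at 48.8 FPKM (199 reads) in KO and 41.9 FPKM (136 reads) in WT, a ratio of 1.16 whose interval of 0.932 to 1.46 holds 1. Their hosts were low: Snhg10 was at 0.805 FPKM in KO and 1.16 FPKM in WT, and Atg16l1 at 6.51 FPKM in KO and 7.88 FPKM in WT. Scarna2, Scarna3a, Scarna3b, Scarna8, Scarna9 and Scarna10 were listed at 0 in both.

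Host genes were compared in the same way. By GENCODE, 108 of the 114 RNAs lay within a longer gene on the same strand, 58 in an intron of every annotated transcript and 50 over an exon of at least 1. The table had a row for the host of 104 of them, 77 different genes. None of the 73 hosts with a mean of at least 1 FPKM was 2-fold apart in either direction (background 0.467% higher and 0.388% lower), and their median log2 ratio was -0.13, against -0.11 over all genes. In a separate list of known host genes, 1 of 37 with that mean was at least 2-fold higher and 0 were lower. That gene was Meg3, a maternally expressed long non-coding RNA, at 15.0 FPKM in KO and 6.38 FPKM in WT (log2 ratio 1.11). By the annotation used, Meg3 is not the host of any of the 114 RNAs. Among the annotated hosts, Snhg6 had the value furthest above 0, at 16.1 FPKM in KO and 9.20 FPKM in WT. Of 16 RNAs above 0 in both libraries with a host row, 8 lay on the same side of 0 as their host (6 to 8 under the 3 other scalings), and of 24 above 0 only in KO, 9 had a host that was higher in KO (12 under each of those scalings).

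**Figure D5:**
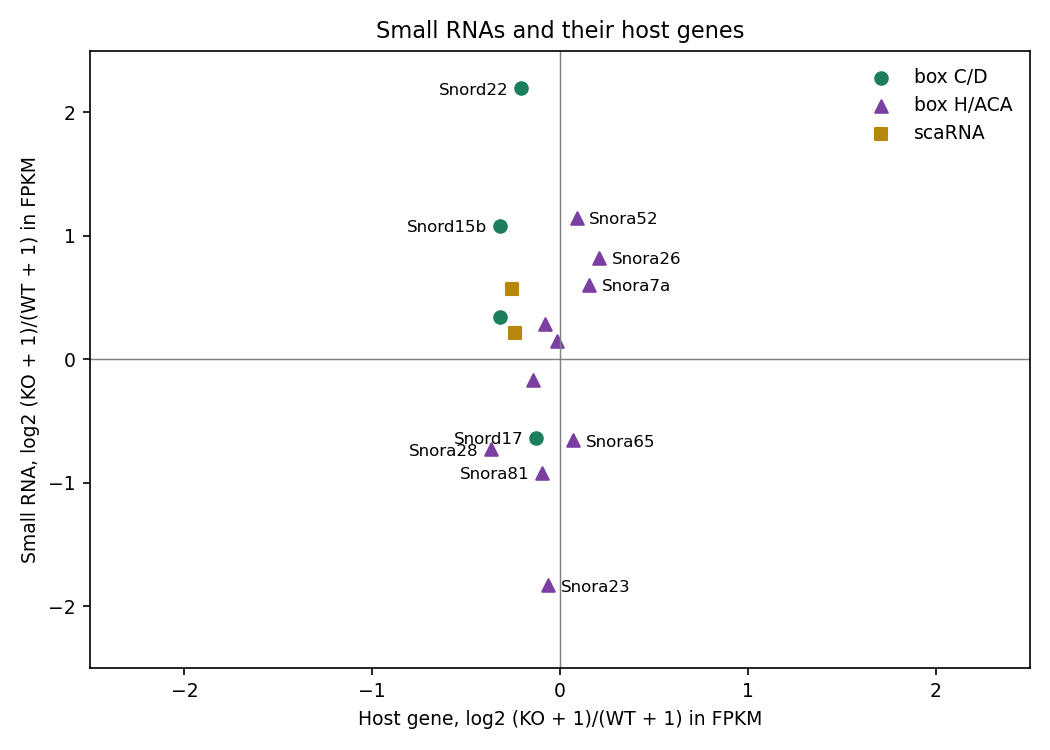
Log2 ratio of KO to WT on the log2(FPKM + 1) scale for 16 small RNAs above 0 in both libraries (y axis) against that of their host gene (x axis). Symbols give the class, and RNAs further than 0.6 from 0 are named. The hosts all lie near 0 on the x axis while the small RNAs spread from -1.83 (Snora23) to 2.20 (Snord22).

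Several RNAs with abundant hosts were not seen in either library. Hosts of the RNAs at 0 in both libraries ranged up to 1593 FPKM in KO and 1729 FPKM in WT, both in Rps3a1, the host of Snord73a. Gas5, the host of Snord47, was at 18.02 FPKM in KO and 14.2 FPKM in WT, and Snord47 was listed at 0 in both. The 15 hosts of the RNAs above 0 in both libraries had a median of 81.7 FPKM in KO and 106 FPKM in WT. The 50 hosts of the RNAs above 0 in neither had a median of 34.6 FPKM in KO and 40.2 FPKM in WT.

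The proteins that build snoRNA particles were present in both libraries with no 2-fold difference. Of 27 genes of this list with a mean of at least 1 FPKM, 0 were higher and 0 lower by at least 2-fold, where the background is 0.467% and 0.388%, and 19 lay below the median of all genes. Their median log2 ratio was -0.19. The 4 core proteins of box C/D particles lay below the median of all genes: Fbl (fibrillarin, the methyltransferase) was at 20.4 FPKM in KO and 25.6 FPKM in WT. Nop56 was at 59.0 FPKM in KO and 71.8 FPKM in WT, Nop58 at 77.1 FPKM in KO and 87.9 FPKM in WT, and Nhp2l1, which binds the kink turn of the box motifs, at 43.0 FPKM in KO and 60.1 FPKM in WT. The short C/D RNAs read only in KO stood beside slightly lower core protein transcripts in KO.

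The H/ACA core proteins were mixed. Dkc1 (dyskerin, the pseudouridine synthase) was at 19.9 FPKM in KO and 20.9 FPKM in WT, Nhp2 at 25.0 FPKM in KO and 32.9 FPKM in WT, and Nop10 at 58.7 FPKM in KO and 42.1 FPKM in WT. Gar1 was below the mean of 1 FPKM, at 0.574 FPKM in KO and 0.661 FPKM in WT. Coil, the Cajal body scaffold coilin, was at 5.71 FPKM in KO and 7.01 FPKM in WT, and Wrap53, which brings scaRNAs to Cajal bodies, at 2.47 FPKM in KO and 2.78 FPKM in WT. Of 11 assembly factors 9 lay below the median of all genes, among them Tcof1 at 6.399 FPKM in KO and 9.31 FPKM in WT. Of 6 genes of trimming, capping and the U3 particle 2 did, with Rrp9, a protein of the U3 particle, at 4.79 FPKM in KO and 7.86 FPKM in WT.

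Non-coding RNAs made outside introns were also above 0 in both libraries, with differences in both directions. Rmrp, the RNA of ribonuclease MRP, was at 2425 FPKM in KO and 2889 FPKM in WT, and Rpph1, the RNA of ribonuclease P, at 947 FPKM in KO and 1178 FPKM in WT. Terc, the telomerase RNA, which ends in an H/ACA domain, was at 1.68 FPKM in KO and 0.577 FPKM in WT. Rn4.5s, a small non-coding RNA of rodents, was at 174.9 FPKM in KO and 0.834 FPKM in WT, and was the only 1 of these 4 at least 2-fold apart with a mean of at least 1 FPKM. Rmrp and Rpph1 were both lower in KO, and Terc and Rn4.5s both higher. The lengths of these 4 RNAs were not compared, and the part of length in their differences was not tested.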

How the data were processed

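Ribosomal RNA-depleted total RNA (500 ng) of pooled ventricles was turned into stranded libraries (15 cycles of PCR) and read for 100 bases from 1 end, per the labels' protocols. The submitters' processing notes name Cufflinks 2.0.2, Bowtie2 2.0.2, TopHat2 2.0.6 and build mm9. Gene annotation and settings are not given in the sources used here. The authors deposited 1 FPKM value per symbol and library.

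The read step of each library was found on single-exon genes outside the snoRNAs and scaRNAs with few reads. It was the product of FPKM and RefSeq length that gave the most whole numbers. The shares of whole numbers were taken over such genes with under 30 reads. The step was then applied to the small RNAs. The steps were tested on simulated data. Ratios are log2((KO + 1)/(WT + 1)), with a minimum mean of 1 FPKM for calls. Ratio intervals are exact (Clopper-Pearson, 95%) on the KO share of reads.

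Lengths, hosts and sequences came from GENCODE vM21 and RefSeq GRCm38.p6 by symbol (113 of 114 RNAs in each). Since the values are on mm9, no coordinates are given. Full values were given for the RNAs above 0 in both libraries and for the others of highest mean, and those at 0 in both were counted, with some named after their values were seen. The members and lists were chosen with earlier results of these data known. Alternatives were pseudocounts, filters, limits, lengths and scalings. Python 3.11.15, numpy 2.4.6, pandas 2.3.3, scipy 1.17.1 and matplotlib 3.10.9 were used.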

Additional observations from a re-analysis of the deposited data

How the results depend on the processing

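No paired analysis was possible because KO and WT each have a single library, which also means that none could be dropped. RNAs at least 2-fold higher in KO numbered 5 with a pseudocount of 5, 5 at a minimum mean of 5 FPKM, 7 at 4-fold and 3 without those listed at 0 in 1 library, against 16. Those at least 2-fold lower numbered 1 with a pseudocount of 5, 4 without a minimum, 1 at a minimum mean of 5, 6 at 1.5-fold and 0 at 4-fold, against 2. Other counts of these calls, with each of the 3 scalings and a pseudocount of 0.1 among them, stayed within 1.5 times. With classes set by length, 0 RNAs under 100 nt were above 0 in WT by GENCODE and 0 by RefSeq, against 4 by symbol. Of scaRNAs with whole read numbers 1 was above 0 in WT, against 2. Symbols under 110 nt above 0 numbered 1 in WT, and those under 150 nt numbered 48 in KO and 18 in WT, against 20 in KO and 0 in WT under 100 nt.

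The median log2 ratio of RNAs above 0 in both libraries (0.215) was 0.239 with a pseudocount of 0.1, 0.0883 with 5, 0.34 with median centring, 0.347 with upper-quartile scaling, 0.268 with quantile normalization and 0.0685 as a mean. The particle protein median (-0.187) was -0.196 and -0.163 with pseudocounts of 0.1 and 5, and -0.0649, -0.0564 and -0.0557 under the scalings in that order. The host median (-0.128) was -0.11 with a pseudocount of 5, -0.145 for the list of known hosts, -0.00133 with median centring, and changed sign to 0.00746 with upper-quartile scaling and 0.0123 with quantile normalization. These scalings by construction bring the median of all genes (-0.109) close to 0. Of the 25 RNAs with whole read numbers above 0 only in KO, 17 had at most 3 reads there. The alternatives by RefSeq length, whole reads, values above 0 in both and sums with 1 RNA left out were chosen after seeing the data.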
